A study of Homo sapiens with 3 samples.

Results

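The HOX genes were examined as a family in the map of ETS1 binding in SCC25 cells. They were taken by name from GENCODE 44 on GRCh37, the same nuclear sequence as hg19, as the protein-coding genes called HOXA, HOXB, HOXC or HOXD with a number, which gave 39 of the 19881 protein-coding genes with a canonical transcription start site (TSS). HOXA lies on chromosome 7 with 11 genes, HOXB on chromosome 17 with 10, HOXC on chromosome 12 with 9 and HOXD on chromosome 2 with 9. SCC25 is an established squamous carcinoma line of the tongue with a mesenchymal expression profile, and the 3 ChIP samples came from untreated cells of this 1 line, using polyclonal antibodies against ETS1 (C20 in 2 samples, 501A in 1). The deposited list pools all 3 samples into 26970 peak positions, with no height, score or value per sample, so no spread between replicates could be given and the antibodies could not be compared. Shares therefore carry 95% Wilson confidence intervals, which cover counting only and treat genes as independent, although neighbouring HOX genes share a locus. The list holds no expression, and which HOX genes SCC25 cells transcribe was not measured here.

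HOX genes encode homeodomain transcription factors that give cells their position along the body axis. Within a cluster the genes lie on the same strand and are numbered by paralog group, from group 1, used towards the head, to group 13, used towards the tail and in the distal limb. Clusters that a cell does not use are typically held under Polycomb proteins and the H3K27me3 mark, while HOX promoters are mostly rich in CpG. ETS1 is an ETS family factor that binds DNA around a GGAA core.

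The sequences that follow show CCGGAA matches in ETS1 peaks of the HOX clusters, where 28 of the 43 peaks held one. They are the 100 bases around a match in 1 or 2 peaks of each cluster, among windows that touch no annotated exon. They are given 5′ to 3′ on the plus strand of hg19, and capitals mark CCGGAA or its complement TTCCGG.
HOXA, chr7:27200849-27200948, intergenic between HOXA7 and HOXA9: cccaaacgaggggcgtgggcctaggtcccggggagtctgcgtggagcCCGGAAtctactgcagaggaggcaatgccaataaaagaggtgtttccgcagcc
HOXB, chr17:46723621-46723720, an intron of LINC03057: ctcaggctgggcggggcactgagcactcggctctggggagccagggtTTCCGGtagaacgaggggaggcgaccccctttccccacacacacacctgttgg
HOXB, chr17:46663432-46663531, an intron of HOXB3: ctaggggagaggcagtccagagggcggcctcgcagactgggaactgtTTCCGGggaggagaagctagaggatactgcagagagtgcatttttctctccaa
HOXC, chr12:54412178-54412277, an intron of HOXC4 and HOXC6 in the widest HOX peak: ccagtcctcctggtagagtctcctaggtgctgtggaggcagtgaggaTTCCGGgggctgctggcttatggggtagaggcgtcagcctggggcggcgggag
HOXD, chr2:177005553-177005652, an intron of HOXD3: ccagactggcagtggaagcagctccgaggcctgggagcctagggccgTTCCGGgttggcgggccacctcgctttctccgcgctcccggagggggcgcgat
HOXD, chr2:177023749-177023848, an intron of HOXD3: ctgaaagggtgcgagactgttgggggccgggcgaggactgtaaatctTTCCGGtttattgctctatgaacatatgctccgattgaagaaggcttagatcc
The match lay 107 bp from the peak midpoint in the HOXA window and 34 bp in the HOXC window. It lay 325 and 408 bp away in HOXB and 107 and 511 bp away in HOXD. The list gives each peak only as an interval, so none of these matches can be called a bound site.

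A HOX gene was counted as having a peak when a peak midpoint fell in its basal domain. This is the stretch from 5 kb upstream to 1 kb downstream of the canonical TSS, as in the GREAT tool. The study used that tool to match each peak to its nearest gene, so a gene without a peak here may have one there. By this measure 22 of the 39 HOX genes had a peak (56.4%, confidence interval 41.0 to 70.7%), against 55.9% of all protein-coding genes. The share of the whole family lay close to this background, while its clusters spread widely around it. HOXA genes had a peak in 10 of 11 cases (90.9%, 62.3 to 98.4%), HOXC genes in 5 of 9 (55.6%, 26.7 to 81.1%), HOXD genes in 4 of 9 (44.4%, 18.9 to 73.3%) and HOXB genes in 3 of 10 (30.0%, 10.8 to 60.3%). The interval of HOXA lay above that of HOXB by a narrow margin (62.3 against 60.3%), while every other pair of clusters had overlapping intervals. That margin includes HOXA3, which counted only through the peak over the HOXA7 TSS. By cover of the TSS the counts were 8 of 11 in HOXA and 2 of 10 in HOXB. The difference between clusters was not tested, because the genes of a cluster are not independent and the list has no replicates.

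**Figure D1:**
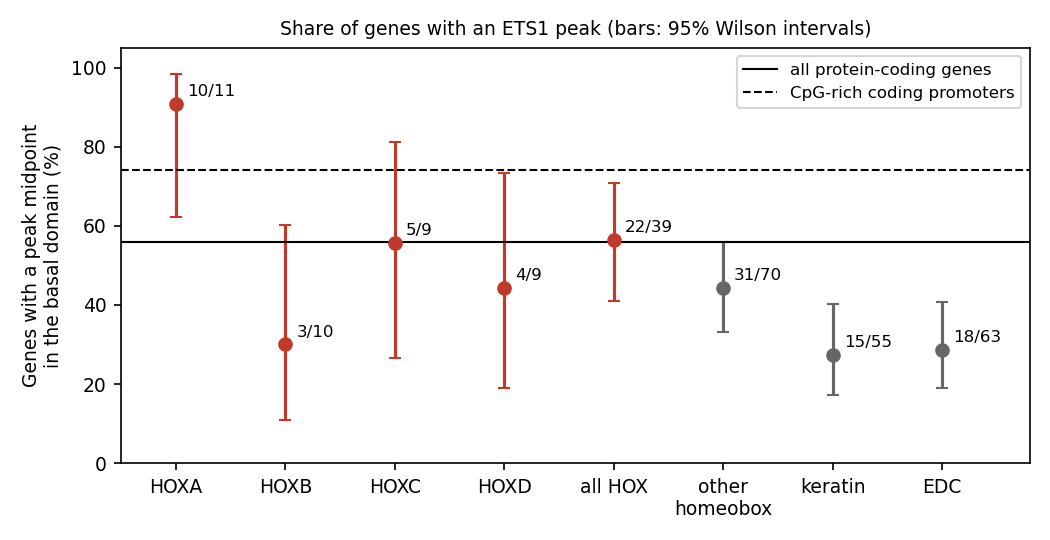
Share of genes with an ETS1 peak midpoint in the basal domain (y axis, percent) for each HOX cluster, all HOX genes and 3 comparison families, with 95% Wilson intervals as bars and the counts beside the points. HOXA stands at 10 of 11 genes and HOXB at 3 of 10, on either side of the solid line at 55.9% for all protein-coding genes, and the dashed line marks CpG-rich promoters at 74.2%.

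By midpoints, the shares differed less between positions along the cluster than between clusters. Among paralog groups 1 to 3, used in the hindbrain and neck, 4 of 8 genes had a peak, among groups 4 to 8 it was 9 of 15 and among groups 9 to 13 it was 9 of 16. The TSS itself was inside a peak for 2 of 8, 5 of 15 and 11 of 16 genes in the same order, against 52.2% of all protein-coding genes. CpG-rich promoters moved with position too, at 4 of 8, 11 of 15 and 15 of 16 genes, and each covered HOX TSS lies in a CpG-rich promoter. The part of base composition in the cover by position was not tested. Group 7 (HOXA7 and HOXB7) and group 11 (HOXA11, HOXC11 and HOXD11) were the groups in which each member had its TSS inside a peak. Group 12 (HOXC12 and HOXD12) had no peak in either basal domain. Of the 4 group 13 genes, HOXA13, HOXC13 and HOXD13 each had a peak over the TSS, and HOXB13, a gene of the hindgut and prostate, had its nearest midpoint 24258 bp away.

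**Figure D2:**
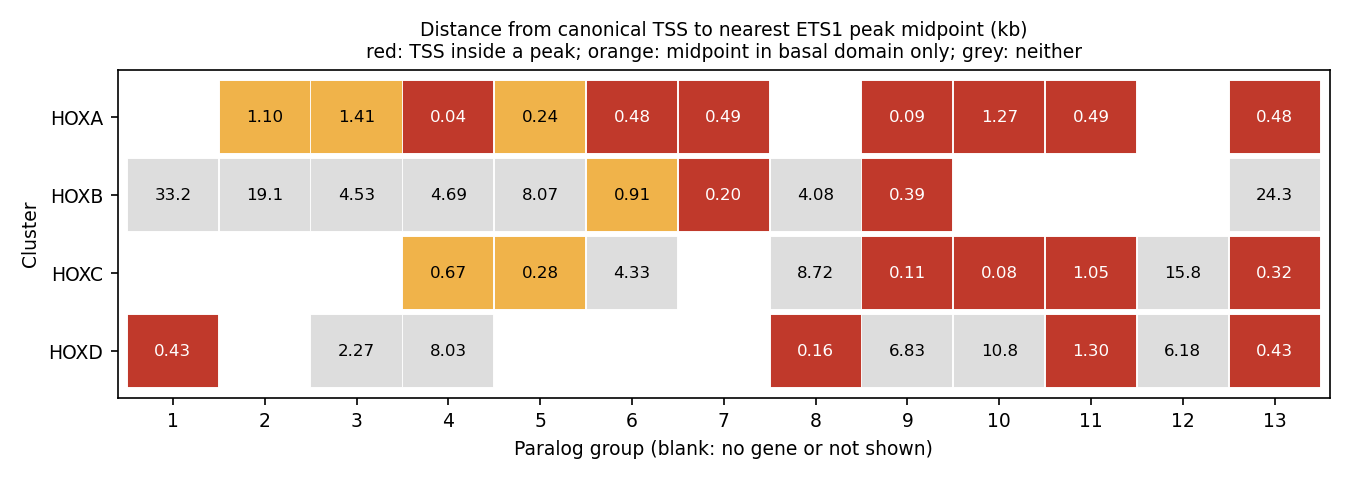
Distance in kb from the canonical TSS of each HOX gene to the nearest ETS1 peak midpoint, with clusters as rows and paralog groups as columns. Red cells mark genes whose TSS is inside a peak, orange cells the 6 with a midpoint in the basal domain only and grey cells the 15 with neither, of which 7 are HOXB genes and none is a HOXA gene; blank cells have no gene or are not shown.

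HOX promoters were compared with promoters of like base composition. A promoter was called CpG-rich when the 500 bp on either side of the TSS had a GC content of at least 55% and an observed to expected CpG ratio of at least 0.6, which held for 30 of the 39 HOX genes. Of these 30, 19 had a peak (63.3%, confidence interval 45.5 to 78.1%), against 74.2% of the 11959 CpG-rich coding promoters. The other 9 HOX genes had a peak in 3 cases (33.3%, 12.1 to 64.6%), against 28.3% of the other coding promoters. The share of the CpG-rich HOX promoters was below that of their class, but its interval includes the class value. The 9 HOXD promoters were all CpG-rich, with a median GC content of 67.8%, and 4 had a peak. In the HOXB cluster 4 of 10 promoters were CpG-rich and in HOXA 10 of 11 were, so base composition moved with the difference between these clusters, and its part in that difference was not tested. Genes of other homeobox families, DLX, LHX, NKX and PAX among them, had a peak at 31 of 70 genes (44.3%, 33.2 to 55.9%). With CpG-rich promoters only, it was 25 of 52 (48.1%, 35.1 to 61.3%), an interval that overlaps that of the CpG-rich HOX promoters. Keratin genes had a peak at 15 of 55 and genes of the epidermal differentiation complex at 18 of 63. These 2 families are not of like base composition, with 4 and 1 CpG-rich promoters.

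ETS1 peaks were dense in the HOX clusters. The clusters held 43 peak midpoints in 523 kb, or 8.23 per 100 kb, against 0.943 per 100 kb in the nuclear genome outside sequence gaps. Peaks covered 13.9% of the cluster sequence and 1.08% of the genome. With 50 kb added on either side the count was 48, so that the 400 kb of flanks held 5 midpoints (1.25 per 100 kb) and 1.32% of their bases were covered. The density of the pooled flanks was thus close to that of the genome, but the flanks differed between clusters. Those of HOXC and HOXD held no midpoint. With flanks added, the density fell from 17.7 to 10.1 per 100 kb in HOXA. It fell from 9.39 to 5.06 in HOXC and from 6.11 to 3.03 in HOXD. In HOXB it was 3.50 without and 3.33 with flanks, so by number of peaks HOXB stood out little from its flanks. HOXA had 17.7 peaks per 100 kb (19 peaks, 28.6% covered), HOXC 9.39 (11 peaks, 17.6% covered), HOXD 6.11 (6 peaks, 11.4% covered) and HOXB 3.50 (7 peaks, 5.14% covered). Each was above its own chromosome, which held between 0.759 and 1.97 peaks per 100 kb, the lowest being chromosome 7 with HOXA. When the genome was cut into 28655 fixed tiles of 100 kb, the HOXA cluster fell into tiles with 12 and 9 peaks, which ranked 24 and 138 by number of peaks. The HOXC tiles had 6 and 5 peaks (ranks 552 and 900) and the HOXD tiles 3 each (rank 2241). The HOXB tiles had 5, 2 and 1 peaks (ranks 900, 3618 and 6138). Tiles reach past the ends of the clusters. The 1 peak of the last HOXB tile and 2 of the 9 in the second HOXA tile lie in flanks. For comparison, the type I keratin cluster held 1.86 peaks per 100 kb, the type II keratin cluster 5.23 and the epidermal differentiation complex 3.34. The clusters are also dense in genes, with 39 HOX TSSs in 523 kb, against 19881 coding TSSs in the 2858658 kb of the genome. The part of gene density in the density of peaks was not tested. Copy number at these loci and reads of the input were not analysed here, and their part in the density of peaks was not tested.

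**Figure D3:**
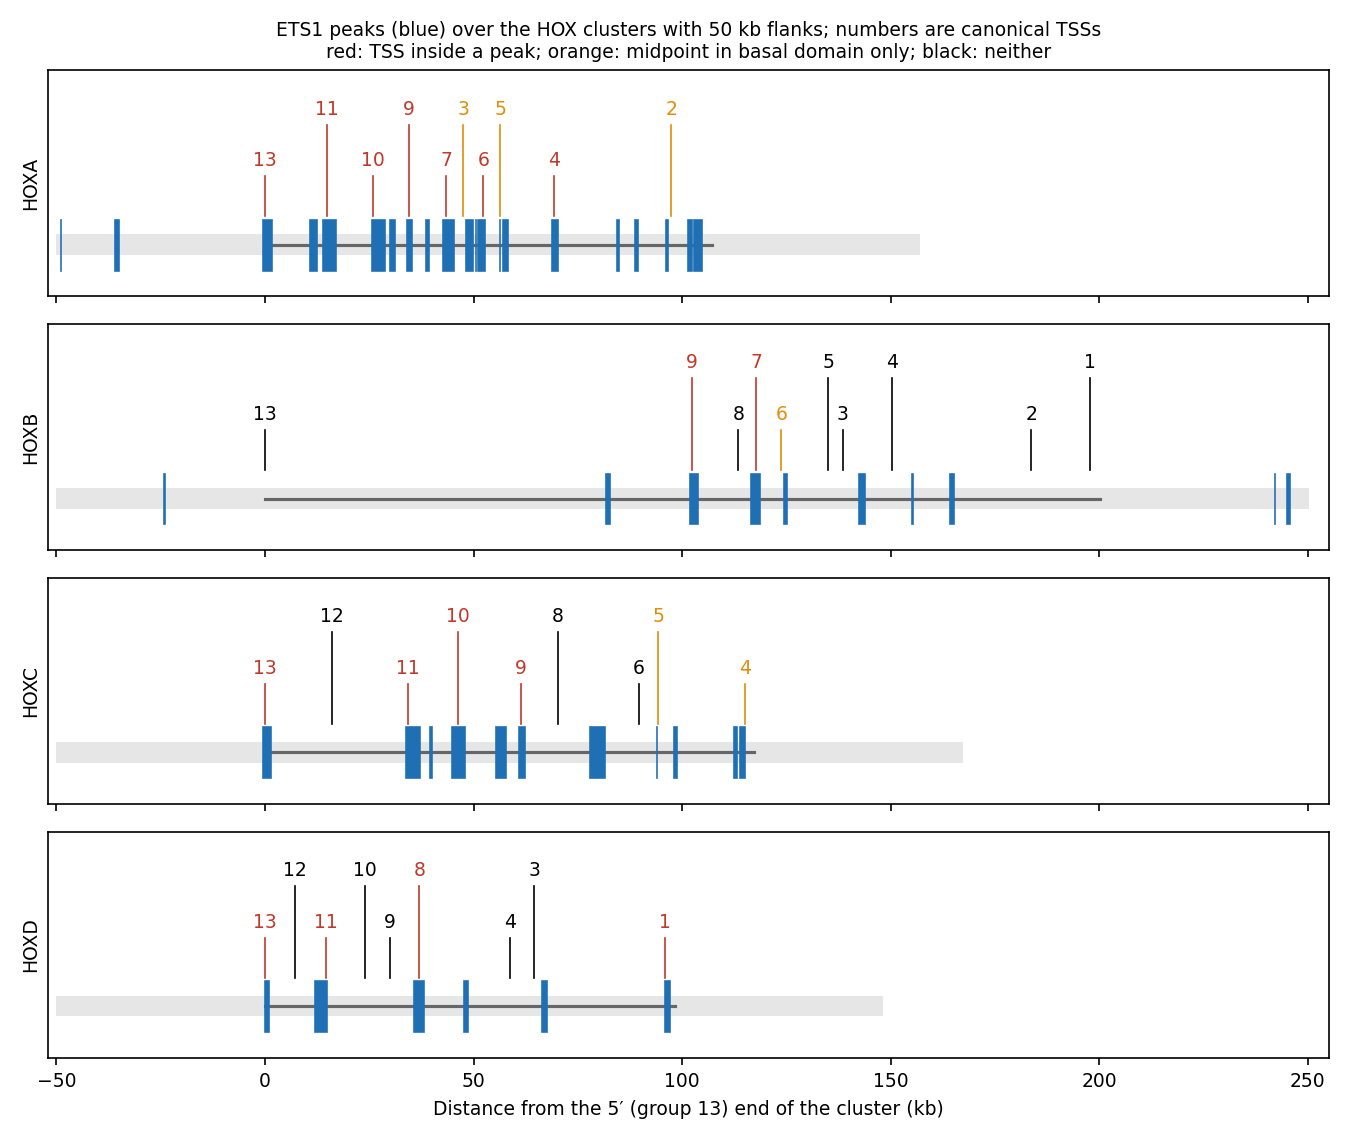
ETS1 peaks (blue boxes, drawn to scale) over the 4 HOX clusters (dark line) and 50 kb of flank (light bar), against the distance in kb from the group 13 end, with paralog numbers above the canonical TSSs shown. The 19 HOXA peaks lie along the whole cluster, while HOXB has 81.6 kb without a peak next to HOXB13.

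In the HOXA cluster 8 of the 11 TSSs were inside a peak, and the other genes, HOXA2, HOXA3 and HOXA5, had a peak edge 706, 364 and 41 bp from the TSS. The peak near the HOXA3 TSS had its midpoint 1410 bp downstream, outside the basal domain. HOXA3 was counted through the peak over the HOXA7 TSS. HOXA9, a regulator of blood progenitors that is active in acute leukaemia, had the peak chr7:27204583-27205916 with its midpoint 94 bp upstream of the TSS. HOXA4 lay closest to a midpoint, at 35 bp. HOXA10 and HOXA11, which pattern the uterus and the forearm, were covered by the widest HOXA peaks, of 3497 bp (chr7:27210917-27214413) and 3503 bp (chr7:27222606-27226108). HOXA13, needed for digits and the genital tract, had a peak of 2450 bp over its TSS. HOXA6 was the HOX gene with most midpoints in its basal domain, at 3, which 0.443% of all protein-coding genes had or exceeded. The longest stretch of HOXA without a peak measured 14020 bp and held no TSS of a HOX gene.

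HOXB was the sparsest cluster by peaks per 100 kb, by cover and by share of genes with a peak. It was also the longest, at 200 kb against 98.2 to 117 kb in the others, and this length enters the first 2 measures. Only HOXB7, in a peak of 2471 bp (chr17:46687342-46689812), and HOXB9, in a peak of 2137 bp (chr17:46702258-46704394), had their TSS inside a peak, and HOXB6 had a midpoint 907 bp downstream. HOXB1 and HOXB2, which pattern the hindbrain and the facial nerve, lay in 35.0 kb without a peak, with their nearest midpoints 33203 and 19105 bp away. HOXB4, known for the growth of blood stem cells, and HOXB5 had CpG-rich promoters and nearest midpoints at 4690 and 8068 bp. Of the 7 peaks in HOXB, 3 lay in introns of HOXB3, and 1 of 1075 bp covered the TSSs of the lncRNAs LINC02086 and LINC03057. The stretch of 81.6 kb between that peak and the end of the cluster, which ends with HOXB13, held none.

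In HOXC each covered TSS belonged to groups 9 to 13. The TSSs of HOXC9, HOXC10, HOXC11 and HOXC13 were inside peaks of 1759, 3424, 3545 and 2034 bp. HOXC10 and HOXC9, which specify motor neurons of the spinal cord, had midpoints 81 and 107 bp from the TSS. HOXC13, which drives hair and nail keratins, had one at 315 bp. The HOXC11 peak (chr12:54366191-54369735) also covers the TSS of HOTAIR, a lncRNA that is transcribed from the opposite strand and is studied for its role in metastasis. HOXC4 and HOXC5 had a midpoint 670 and 280 bp upstream of a TSS that no peak covered. HOXC12, HOXC8 and HOXC6 had nearest midpoints at 15757, 8717 and 4330 bp. The widest peak of all 4 clusters, 3976 bp at chr12:54410205-54414180, lies at the 99.2 percentile of width in the list. Its midpoint is in introns of HOXC4 and HOXC6, and it covers no canonical HOX TSS. It does cover the TSSs of the lncRNAs ENSG00000273046 and ENSG00000260597, and the annotated start of the HOXC4 gene (54410715) lies inside it. The annotated TSS nearest to the midpoint is that of ENSG00000273046, at 1299 bp.

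In HOXD the 6 peaks covered the TSSs of HOXD1, HOXD8, HOXD11 and HOXD13 and left HOXD3, HOXD4, HOXD9, HOXD10 and HOXD12 without a midpoint in the basal domain. HOXD13, mutated in synpolydactyly of the hand, had a peak of 1176 bp with its midpoint 432 bp downstream. HOXD11, which acts with HOXA11 in the forearm, had one of 3258 bp (chr2:176969077-176972334). HOXD9 and HOXD10 lay together in 20.6 kb without a peak. The 2 peaks that cover no HOX TSS were in introns of HOXD3, at chr2:177004906-177006083 and chr2:177023564-177025054.

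The rule on midpoints missed wide peaks at 2 promoters. The TSSs of HOXC11 and HOXA10 were inside peaks whose midpoints lay 1053 and 1274 bp downstream, just past the edge of the basal domain at 1 kb, while the midpoint of HOXB6, at 907 bp, was just inside it. By cover of the TSS, 18 of the 39 HOX genes (46.2%) were occupied, against 52.2% of all protein-coding genes. Each of these 18 has a CpG-rich promoter, so the share was 60.0% of the 30 CpG-rich HOX promoters, against 72.0% of CpG-rich coding promoters. Of the 39 genes 15 had neither a midpoint in the basal domain nor a covered TSS, and 9 of these 15 had CpG-rich promoters. For 5 of the 15 (HOXB1, HOXB2, HOXB13, HOXC12 and HOXD10) the nearest midpoint was over 10 kb away. At 8 HOX genes (20.5%) the basal domain held 2 or more midpoints, against 5.57% of all protein-coding genes, and 6 of these 8 are HOXA genes. The peaks were seldom shared, with 29 distinct peaks in the basal domains of the 22 genes, of which 27 fell in the domain of 1 gene.

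Peaks in the HOX clusters were wider than the typical peak of the list. Their median width was 1502 bp (range 265 to 3976 bp, n = 43), against 969 bp over the 26961 nuclear peaks. Those over a HOX TSS had a median of 2294 bp (n = 18), against 1366 bp for the 9159 peaks over any coding TSS, and 12 of the 18 (66.7%) were at least 2 kb wide, against 20.3% of such peaks. Counted by gene, 30.8% of HOX genes and 10.7% of all protein-coding genes had a peak of this width over the TSS. The 25 cluster peaks that cover no HOX TSS had a median of 1039 bp, near that of the whole list. The medians of the clusters ran from 1353 bp in HOXB to 1759 bp in HOXC, within a spread of peaks in each cluster that overlapped the others. The position in the list, whose order has no stated meaning, was unremarkable, with 20 of the 43 cluster peaks among the first 13485.

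**Figure D4:**
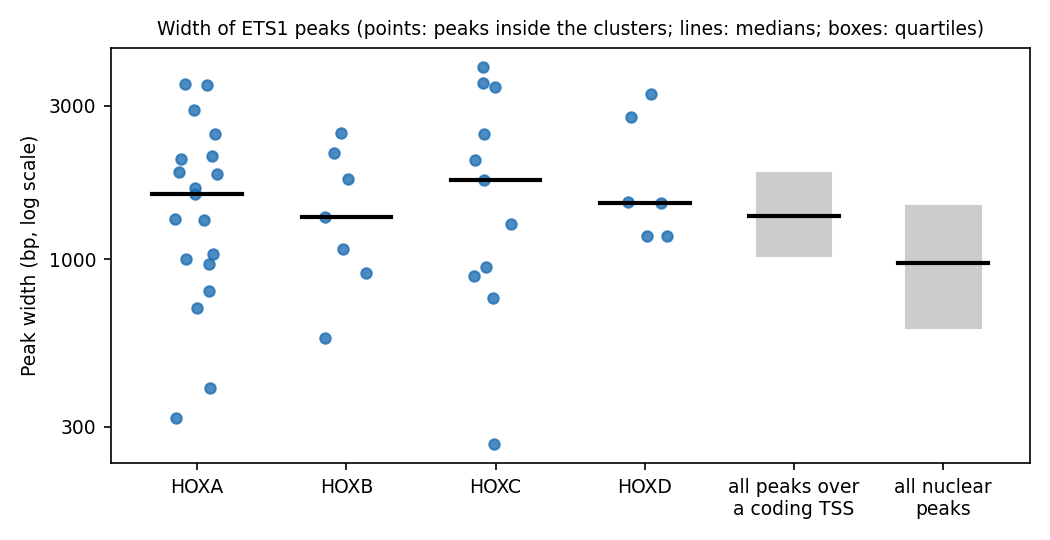
Width of each ETS1 peak inside the HOX clusters (points, log scale in bp) with the cluster median as a line, beside the median and quartiles (grey boxes) of all peaks over a coding TSS and of all nuclear peaks. The cluster medians run from 1353 to 1759 bp, above the 969 bp of all nuclear peaks.

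Motifs were counted in whole peaks on both strands. CCGGAA was present in 28 of the 43 HOX cluster peaks (65.1%, confidence interval 50.2 to 77.6%), against 37.4% of all nuclear peaks and 64.4% of peaks over a coding TSS. Because HOX peaks are wide, matches were also counted by length, which gave 0.686 per kb in HOX cluster peaks, 0.530 in all nuclear peaks and 0.754 in peaks over a coding TSS. HOXC and HOXA peaks had 0.844 and 0.797 matches per kb, and HOXD and HOXB peaks 0.439 and 0.291. Inside the peaks of HOXA there were 0.816 matches per kb and in the rest of the cluster 0.157, while in HOXB the values were 0.291 and 0.195. CCGGAA holds a CpG, and CpG stood at 62.8 per kb inside HOXA peaks and 26.3 outside, and at 61.3 and 22.0 in HOXB. GGAA alone, which is part of each of the longer ETS forms, differed less, with 12.5 matches per kb inside and 12.6 outside in HOXA, 13.5 and 11.4 in HOXB, 13.2 and 13.4 in HOXC, and 11.4 and 12.1 in HOXD. AGGAAG was present in 83.7% and AGGAAA in 79.1% of HOX cluster peaks, against 76.9% and 66.3% of all nuclear peaks and 81.1% and 70.3% of peaks over a coding TSS. By length AGGAAG stood at 1.56 matches per kb in HOX peaks, below the 1.65 of all nuclear peaks and above the 1.38 of peaks over a coding TSS. AGGAAA stood at 1.22, 1.12 and 0.934 matches per kb in the same order.

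The AP-1 core TGANTCA, a site of FOS and JUN factors that often act with ETS proteins, was infrequent in the HOX cluster peaks. It was present in 5 of 43 cluster peaks (11.6%, confidence interval 5.07 to 24.5%), against 40.5% of all nuclear peaks and 21.0% of peaks over a coding TSS. By length there were 0.0807 matches per kb in HOX peaks, 0.168 in peaks over a coding TSS and 0.485 in all nuclear peaks. The interval lies below the share of all nuclear peaks and includes that of peaks over a coding TSS. In windows of 600 bp around the midpoint the share was 6.98% in HOX peaks, 6.79% in peaks over a coding TSS and 30.9% in all nuclear peaks, and in windows of 200 bp it was 4.65%, 2.11% and 15.0%. The HOX share was thus below that of all nuclear peaks at each width, although its interval at 200 bp (1.28 to 15.5%) includes the share of all peaks, and it was not below that of peaks over a coding TSS in the fixed windows. The HOX peaks that cover no HOX TSS had it in 3 of 25 cases. Of the cluster peaks 27 lay within 500 bp of an annotated TSS of some kind and 36 within 1500 bp.

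**Figure D5:**
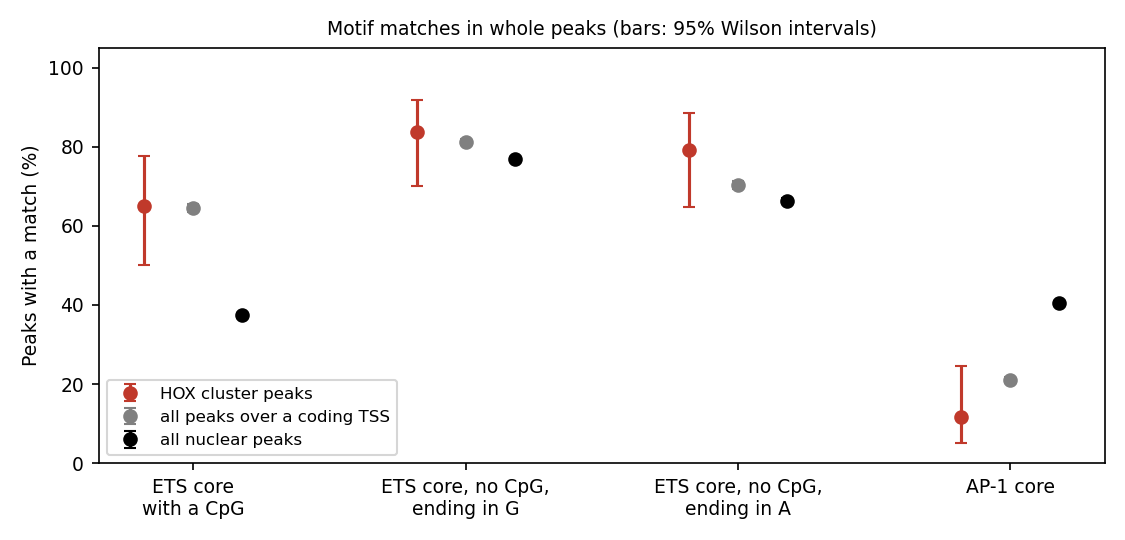
Share of whole peaks with a match (y axis, percent) to CCGGAA (an ETS core with a CpG), the cores without a CpG that end in G or A, and the AP-1 core, for the 43 HOX cluster peaks (red), all peaks over a coding TSS (grey) and all nuclear peaks (black), with 95% Wilson intervals as bars. HOX peaks match peaks over a coding TSS for CCGGAA, at 65.1 and 64.4%, and lie below all nuclear peaks for the AP-1 core, at 11.6 and 40.5%.

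Non-coding genes are interleaved with the HOX genes. Of 27 lncRNA genes with a canonical TSS inside the clusters, 13 had it inside a peak (48.1%, confidence interval 30.7 to 66.0%), against 17.0% of all 18702 lncRNA genes. They include HOXA-AS3, HOXA10-AS and HOXA11-AS in HOXA, HOTAIR, HOXC-AS1, HOXC-AS3 and HOXC13-AS in HOXC, and HAGLR in HOXD. Several share their peak with the TSS of a HOX gene, so the counts are not independent of those of the coding genes. The lncRNAs HOXB-AS1, HOXB-AS2, HOXB-AS3 and HOXB-AS4 had none over the TSS. The clusters also carry the miR-196 genes, whose products act on HOX transcripts. MIR196B, between the canonical TSSs of HOXA9 and HOXA10, lay inside the peak chr7:27208485-27210074, with the midpoint 97 bp from the start of its hairpin. That peak also covers the TSS of HOXA10-AS, and another annotated TSS of HOXA9 lies 76 bp from its midpoint. The peak can therefore not be assigned to MIR196B alone. MIR196A2 in HOXC had its nearest midpoint at 3540 bp and MIR196A1 in HOXB at 6595 bp, both outside a peak, as were MIR10B at 9278 bp and MIR615 at 1180 bp. The mature products (RefSeq, GRCh38.p14) share a seed, shown in capitals.
miR-196b-5p, from the gene inside the peak: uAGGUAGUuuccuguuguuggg
miR-196a-5p, from both genes outside peaks: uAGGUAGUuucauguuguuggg

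HOX proteins bind DNA with TALE homeodomain partners, and of these 9 genes 6 had a midpoint in the basal domain (66.7%, confidence interval 35.4 to 87.9%), which includes the 55.9% of all protein-coding genes. PBX2, PBX3, MEIS1 and MEIS2 had their TSS inside a peak, with peaks of 2583 bp at PBX3 and 2552 bp at MEIS1, and PKNOX1 had a midpoint 923 bp downstream. PBX4, MEIS3 and PKNOX2 had none. Of the ParaHox genes and the EVX genes that border the clusters, 1 of 8 had a peak, namely PDX1. EVX1, next to HOXA13, had its nearest midpoint 6303 bp from the TSS, and EVX2, next to HOXD13, at 9191 bp in the peak over HOXD13.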

How the data were processed

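The authors performed ChIP-Seq for ETS1 on 3 SCC25 samples. Per the labels and the methods, reads were mapped to hg19 with Bowtie 1.1.1, and those mapping to more than 1 locus were removed. Sequences with near-identical copies elsewhere may therefore lack peaks. MACS2 was run at low stringency on each sample, on random splits of it and on the pool made with SAMtools 1.3, against a merged input, and the irreproducible discovery rate (IDR) gave 1 consensus list. The deposited file holds peak positions in hg19 (chromosome, start and end, counted from 0) with no signal or score. Since it gives no depth per sample, a site missed for lack of reads cannot be told from an unbound one.

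Positions are printed 1-based. Genes, TSSs and exons came from GENCODE 44 mapped to GRCh37. A peak was assigned to a gene by its midpoint. No test was run, since the list pools the samples, and Wilson intervals cover counting error only. The named genes were all members, non-coding genes and neighbours in the clusters, and the lists of cofactors, a few of which are counted but not reported here by name. Members and lists were chosen with earlier results of these data known, and the 100 kb tiles, the cover of the TSS and the comparison of dense neighbourhoods were added after values were seen. Matches were counted on both strands, so a palindromic overlap counts as 2. The code was tested on simulated data. Python 3.11.15, pysam 0.24.0, scipy 1.17.1, matplotlib 3.10.9 and samtools 1.23.1 were used.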

Additional observations from a re-analysis of the deposited data

How the results depend on the processing

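The number of HOX genes with a peak moved between 17 and 27 over the alternatives. Any overlap of the domain added HOXA10 and HOXC11 (24 genes), TSSs of all transcripts added HOXA10, HOXB3, HOXC6, HOXD3 and HOXD10 (27 genes, 69.2%, against 60.6% of all protein-coding genes), and 500 bp around the TSS left 17 (43.6%, against 46.7%). HOXA stayed at 8 to 10 of 11 genes and HOXB at 2 or 3 of 10 with narrower windows, the first peaks or the wider peaks of the list. The first 13485 peaks of the list left 17 HOX genes (43.6%), while over all protein-coding genes the count fell from 11115 to 7225 (36.3%). With these peaks the clusters and flanks held 22 midpoints, 8.48% of the cluster sequence was covered and the median width was 2243 bp. With the 13497 peaks at or above the median width 12.5% was covered, and with flanks 8.46%. CCGGAA was present in 16.3% of windows of 200 bp at HOX cluster peaks (11.9% at all nuclear peaks, 19.8% at peaks over a coding TSS) and in 34.9% of windows of 600 bp (26.0% and 43.8%), so at fixed width HOX peaks had a lower share than peaks over a coding TSS. GGAA was present in 100% and AGGAAG in 83.7% of whole HOX peaks. No paired analysis was possible because the list pools the samples, and no replicate could be left out.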

Other observations

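Genes that keep HOX clusters silent or active were among those with ETS1 peaks. Of 19 Polycomb genes, 16 had a peak midpoint in the basal domain (84.2%, 95% Wilson confidence interval 62.4 to 94.5%), against 55.9% of all protein-coding genes and 74.2% of CpG-rich coding promoters, and 18 of the 19 promoters were CpG-rich. CBX8, a reader of H3K27me3, had 3 midpoints, and BMI1, PCGF2, RING1, CBX2 and PHC2 of the same repressive complexes had 2 each. EZH2, the methyltransferase, had a midpoint 360 bp upstream of its TSS, and EZH1, RNF2 and CBX6 had none. Of 9 genes of the MLL and menin complexes, which maintain HOX expression, 8 had a peak (88.9%, 56.5 to 98.0%), with wide peaks of 3611 bp at KMT2A and 3721 bp at KMT2B, and PSIP1 had none. Of the 9 MLL and menin promoters 8 were CpG-rich, and the intervals of both lists include the 74.2% of CpG-rich coding promoters. These lists were not tested, and a peak does not show that a gene responds to ETS1.

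HOX genes lie close together. Of the 39 HOX genes 32 had at least 5 other coding TSSs within 50 kb, and 18 of these had a peak (56.2%, 39.3 to 71.8%), close to the 56.4% of all HOX genes. Over all coding genes in such dense neighbourhoods 63.7% had one, and 84.6% of those with CpG-rich promoters did. Of the 32 HOX genes 26 had CpG-rich promoters. Their share with a peak was not counted apart, so the 84.6% has no HOX value of the same class beside it. This comparison was chosen after the data had been seen.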
